A study of Mus musculus with 3 samples.

Results

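The DNA replication and licensing genes are a list of 39 genes that a cell uses to prepare, start and carry out the copying of its DNA. A member was taken by its gene symbol in the array annotation, read by the probe set with the highest mean over the arrays among those that carry only its symbol. Of the 39, 38 had such a probe set and 37 had a signal above the floor of 3.54 on the log2 scale, the 50th percentile of all probe sets, on every array. Tyms, which encodes thymidylate synthase, was below the floor on all 3 arrays, and Chaf1a, the large subunit of the chromatin assembly factor CAF-1, had no probe set of its own symbol alone. In all, 18193 genes had a probe set, of which 11203 were above the floor on all 3 arrays.

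RNA was measured in MC3T3-E1 cells, an established preosteoblast line from mouse calvaria whose strain the labels give as C57BL/6. The cells were grown for 3 days at 37 °C in 1 of 3 media, all of them MEM α with 10% fetal bovine serum. For normal medium the labels name no further addition. Osteogenic medium also held beta-glycerophosphate at 10 mM and ascorbic acid 2-phosphate at 150 µM. The last medium held 0.6% of the solvent dimethyl sulfoxide (DMSO) in osteogenic medium, and per the labels these cultures stained more strongly with alizarin red S, a dye for calcium mineral. There was 1 array for each medium and no replicate, so no difference here has a test or an error between cultures, and precision is limited by the number of arrays. Of the osteoblast markers listed, the 6 with a probe set were above the floor on all arrays (Sp7, Alpl, Col1a1, Col1a2, Ibsp and Sparc). Markers of other cell types below it on every array were 4 of 6 for macrophages, 3 of 4 for endothelium, 4 of 4 for adipocytes, 3 of 5 for cartilage and 2 of 5 for muscle. Col2a1, the cartilage collagen, had a signal of 7.16 in normal medium, 8.01 in osteogenic medium and 8.08 with DMSO.

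Before S phase, the origin recognition complex marks replication origins, and Cdc6 and Cdt1 use it to load the ring-shaped MCM helicase, a step called licensing. Cyclin E with its kinase, and the kinase Cdc7 with its activator Dbf4, then switch the helicase on together with Cdc45 and the GINS complex, and polymerases copy both strands behind it. Many of these genes are transcribed in a wave at the end of G1 by E2F factors, which are held back by the retinoblastoma family of pocket proteins until cyclin-dependent kinases release them. In bone, preosteoblasts divide before they mature, and cell division falls away as matrix and mineral are made.

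The promoters are shown because the members are known as E2F targets. RefSeq promoter windows (build GRCm38.p6), which run from 250 bases before a transcription start to 50 bases after it, were searched on both strands for 4 words of the E2F site, TTTCCCGC, TTTGGCGC, TTTCGCGC and TTTGCCGC. Windows were matched by symbol for 34 of the 39 members, with none for Mcm4, Gins1, Gins2, Ccne2 and Pole. Of these 34 genes, 14 held at least 1 word in at least 1 window (41.2%). Among all 27025 genes with a window the share was 2.61%, and among the 9088 genes with a window that had signals above the floor throughout it was 4.85%. By window, 14 of 40 member windows held a word, against 2.26% of all 32851 windows. The base composition of the member windows was close to that of the measured genes, with a median GC content of 60.7% and 61.0%, and 52.7% over all windows. The mitosis genes stood near the background, with a word in 1 of 24 genes (4.17%), and replication genes outside the list had one in 11 of 37 (29.7%). The CCAAT box (CCAAT or ATTGG) was found in windows of 20 of the 34 members (58.8%), 18 of the 24 mitosis genes and 42.7% of the genes with signals above the floor.

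The genes with a word were Orc1, Cdc6, Cdt1, Mcm3, Mcm5, Mcm6, Mcm7, Mcm8, Gins3, Pola1, Pold1, Rfc3, Lig1 and Uhrf1. No window of the nucleotide supply genes (Rrm1, Rrm2, Tyms and Tk1) held these letters, which says nothing of the factor. The windows held 20 words in all, 7 reading TTTCGCGC, 7 reading TTTGGCGC and 6 reading TTTCCCGC. In Mcm5 and in Mcm6 a TTTCGCGC and a TTTGGCGC on opposite strands overlapped, so these are counted as 2 words on 1 stretch. Below is 1 window for each functional group that had one, from the member with the highest mean signal. The sequence is written 5′ to 3′ along the gene in lower case, with E2F words on either strand in capitals.
Cdt1 (chr8:122567765-122568064, + strand): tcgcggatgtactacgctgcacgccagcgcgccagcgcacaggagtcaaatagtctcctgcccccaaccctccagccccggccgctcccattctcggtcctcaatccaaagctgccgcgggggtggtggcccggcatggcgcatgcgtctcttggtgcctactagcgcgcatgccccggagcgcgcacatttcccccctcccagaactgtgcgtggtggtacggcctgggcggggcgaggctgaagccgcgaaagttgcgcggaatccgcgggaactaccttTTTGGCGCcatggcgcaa
Mcm7 (chr5:138171834-138172133, - strand): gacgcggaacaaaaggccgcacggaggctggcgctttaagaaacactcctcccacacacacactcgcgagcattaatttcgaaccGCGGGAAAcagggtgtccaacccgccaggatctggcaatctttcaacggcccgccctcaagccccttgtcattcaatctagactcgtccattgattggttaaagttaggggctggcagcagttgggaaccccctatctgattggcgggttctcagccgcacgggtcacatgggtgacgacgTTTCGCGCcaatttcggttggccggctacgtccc
Gins3 (chr8:95633309-95633608, + strand): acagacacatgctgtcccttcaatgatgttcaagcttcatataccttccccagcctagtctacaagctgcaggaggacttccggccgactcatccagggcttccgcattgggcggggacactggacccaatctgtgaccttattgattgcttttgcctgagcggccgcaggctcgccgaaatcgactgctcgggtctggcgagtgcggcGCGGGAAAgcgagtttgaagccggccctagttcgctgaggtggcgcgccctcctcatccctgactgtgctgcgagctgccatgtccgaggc
Lig1 (chr7:13278576-13278875, + strand): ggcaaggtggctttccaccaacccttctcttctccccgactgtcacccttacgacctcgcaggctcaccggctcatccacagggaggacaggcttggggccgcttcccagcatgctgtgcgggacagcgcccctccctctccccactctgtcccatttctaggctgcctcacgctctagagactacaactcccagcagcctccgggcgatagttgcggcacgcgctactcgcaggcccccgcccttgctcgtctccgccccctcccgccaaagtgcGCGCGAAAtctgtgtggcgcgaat
Uhrf1 (chr17:56304063-56304362, + strand): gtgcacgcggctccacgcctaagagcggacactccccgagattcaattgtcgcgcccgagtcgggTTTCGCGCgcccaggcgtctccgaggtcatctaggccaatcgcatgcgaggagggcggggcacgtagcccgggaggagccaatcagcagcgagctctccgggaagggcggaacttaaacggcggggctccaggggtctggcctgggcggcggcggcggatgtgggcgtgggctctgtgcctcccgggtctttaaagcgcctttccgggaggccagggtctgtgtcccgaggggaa
Counted from the transcription start, the word of Cdt1 began at 33, that of Lig1 at 27, that of Gins3 at -41 and that of Uhrf1 at -185. Mcm7 held 1 word at -165 and 1 at 17.

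**Figure D1:**
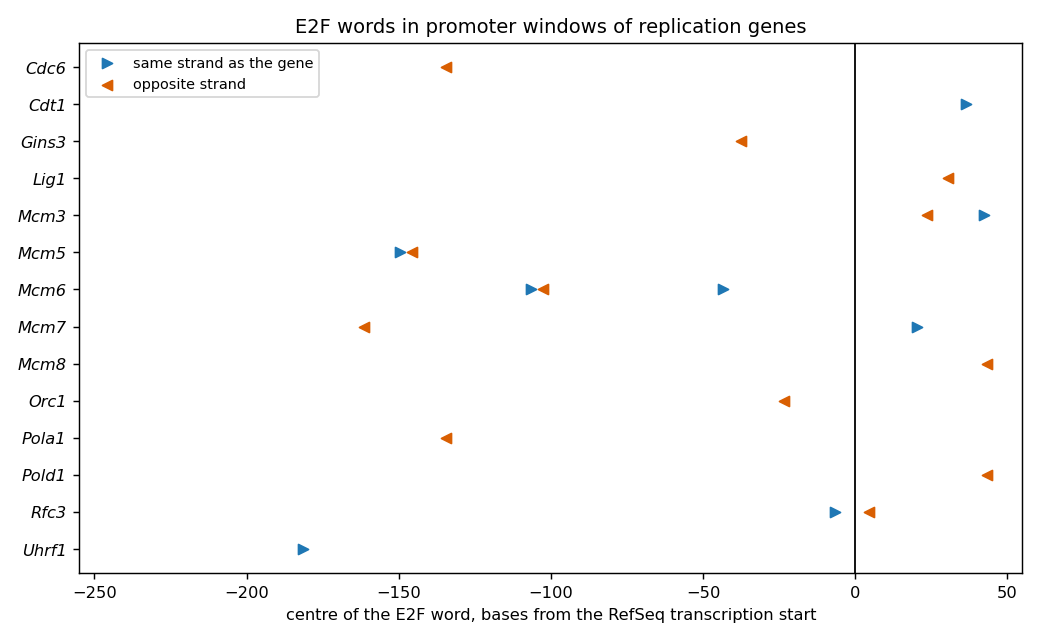
Positions of the 20 E2F words in the promoter windows of 14 replication genes. The x axis is the distance in bases of the word's centre from the RefSeq transcription start (black line), and the direction of a triangle gives the strand; 8 words lay at or beyond the start, 4 within 100 bases before it, and 8 began further upstream.

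Against normal medium, osteogenic medium gave higher signals for most replication genes, and no member differed by 2-fold. Of the 37 measured members, 34 were higher, 2 had equal values and 1 was lower, whereas of all genes measured 36.5% were higher and 38.7% lower. The median difference of the members was 0.34 on the log2 scale (1.26-fold) and that of all genes was 0.00. At a threshold of 0.32 on the log2 scale, a signal 25% higher, 21 members were higher and 0 were lower, beside 6.02% of all genes higher and 5.94% lower. At 2-fold the shares of all genes were 0.473% higher and 0.184% lower. In RNA from a whole culture, more cycling cells and more RNA per cycling cell cannot be told apart.

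The array controls moved with this comparison. The hybridisation spikes are control RNAs of known amount added at hybridisation. Their 18 probe sets, several of which read the same RNA, were higher by a median of 0.10 on the osteogenic array (range 0.00 to 0.29). With the arrays shifted so that the spikes had equal medians, the members' median was 0.23, 32 members were higher and 5 lower, and 12 passed 0.32 beside 3.66% of all genes. The shift takes the same amount from every gene, and the median of all genes was then -0.10. With the second brightest probe set of each gene, 11 of 23 members passed 0.32, beside 5.18% of all genes.

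**Figure D2:**
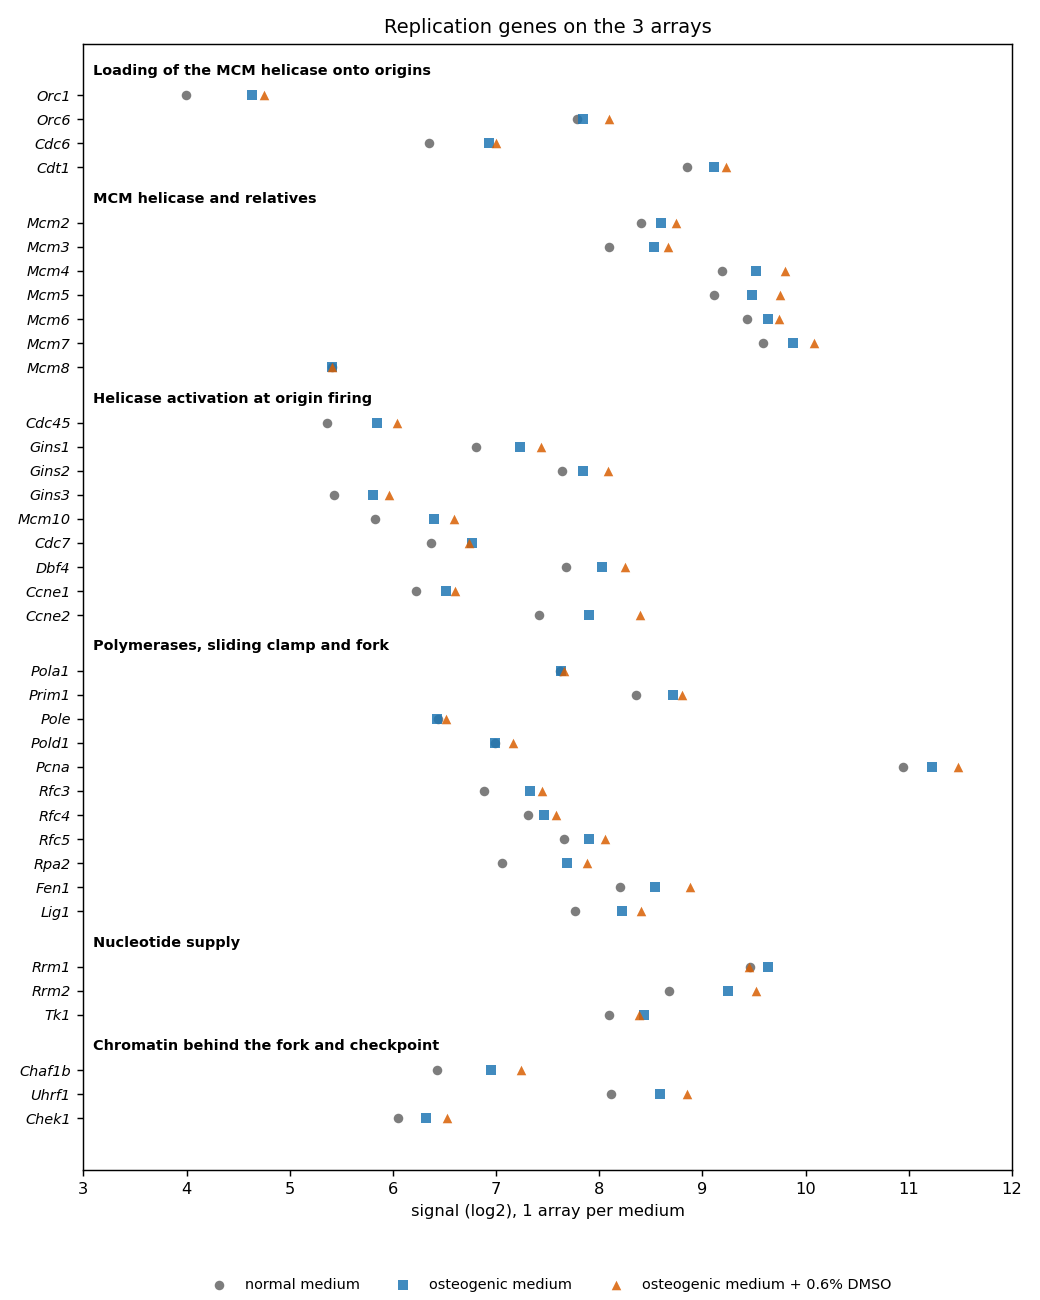
Signal (log2, x axis) of each of the 37 measured replication genes on the array of normal medium (grey circle), osteogenic medium (blue square) and osteogenic medium with 0.6% DMSO (orange triangle), grouped by role. In 31 genes the order from left to right is normal, osteogenic, osteogenic with DMSO; Mcm8 has equal values, and Rrm1 is lowest with DMSO.

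Among the genes that load the helicase, Orc1 and Cdc6 differed most. Orc1, an ATP-binding subunit of the origin recognition complex, had a dim signal of 3.99 in normal medium, 4.63 in osteogenic medium and 4.75 with DMSO. It was 1.56-fold higher in osteogenic than in normal medium (0.64 on the log2 scale), the largest difference of any member in this comparison. Its other probe set read 4.27 on all 3 arrays, so the set shown was the dimmer of the pair in normal medium and was the brighter on average only through the other arrays, and the rank of Orc1 rests on that choice. Cdc6, the loading ATPase, had signals of 6.35 in normal medium, 6.93 in osteogenic medium and 7.0 with DMSO, which is 1.50-fold higher in osteogenic medium, so nearly all of its difference lay between normal medium and the other media. Cdt1, which brings the MCM ring to the origin, had 8.85 in normal medium, 9.11 in osteogenic medium and 9.23 with DMSO. Its osteogenic difference was 0.26, and a second probe set gave 0.25. Orc6, the smallest subunit of the origin recognition complex, had 7.79 in normal medium, 7.85 in osteogenic medium and 8.09 with DMSO and so differed by only 0.06 before DMSO and by 0.25 with it.

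The 6 subunits of the MCM2-7 ring, the replicative helicase, were all higher in osteogenic medium. Mcm3 had signals of 8.10 in normal medium, 8.53 in osteogenic medium and 8.66 with DMSO, a difference of 0.43 in osteogenic medium. Its further bright probe sets gave 0.49, 0.38 and 0.35, and a dim set gave 0.00. Mcm5, with 9.11 in normal medium, 9.48 in osteogenic medium and 9.76 with DMSO, was higher by 0.37. Its second probe set gave 0.44 and a dim set 0.18. On their brightest probe sets, the other subunits lay lower in size. Mcm4 had 9.19 in normal medium, 9.52 in osteogenic medium and 9.80 with DMSO, higher by 0.33. Its second probe set gave 0.44, so the rank of Mcm4 in the ring depends on the probe set. Mcm7 had 9.59 in normal medium, 9.88 in osteogenic medium and 10.08 with DMSO, higher by 0.29, with 0.29, 0.23 and 0.18 from its other probe sets. On the brightest sets, the smallest differences of the ring were those of Mcm6 (0.21, from signals of 9.43, 9.63 and 9.74 in the same order of media) and Mcm2 (0.19, from 8.40, 8.59 and 8.75). The second probe set of Mcm6 gave 0.17 and that of Mcm2 gave 0.23. Mcm8, a relative of the ring proteins that works in recombination repair, read 5.41 on all 3 arrays.

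Helicase activation and origin firing held 9 genes, all higher in osteogenic medium, beside 36.5% of all genes. Their median was 0.40 and 7 passed 0.32, beside 6.02% of all genes. Mcm10, which acts at the step where the helicase opens DNA, had 5.82 in normal medium, 6.40 in osteogenic medium and 6.59 with DMSO, and was 1.49-fold higher. Cdc45, a part of the active helicase, had 5.36, 5.85 and 6.04 in the same order of media, a difference of 0.49, while its dim second probe set read 4.41 on all arrays. Ccne2, a cyclin E, had 7.42 in normal medium, 7.90 in osteogenic medium and 8.40 with DMSO, higher by 0.49, and Ccne1, the other cyclin E, had 6.22, 6.52 and 6.60, higher by 0.29. The cyclin E genes thus both stood above normal medium. The GINS subunits Gins1, Gins3 and Gins2 were higher by 0.42, 0.38 and 0.20, with a second probe set of Gins2 at 0.37. Their signals were 6.81, 7.23 and 7.44 for Gins1, 5.43, 5.80 and 5.96 for Gins3 and 7.64, 7.85 and 8.08 for Gins2. The kinase Cdc7 had 6.37 in normal medium, 6.76 in osteogenic medium and 6.74 with DMSO and was higher by 0.40, although its second probe set gave 0.05. Its activator Dbf4 had 7.68, 8.03 and 8.25, higher by 0.35.

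The catalytic subunits of the polymerases had nearly the same signals in normal and osteogenic medium. Pola1, the catalytic subunit of the priming polymerase alpha, had 7.62 in normal medium, 7.62 in osteogenic medium and 7.65 with DMSO. Pole, that of the leading-strand polymerase, had 6.44, 6.43 and 6.51 in the same order of media, the 1 member that was lower in osteogenic medium (by -0.01). Pold1, that of the lagging-strand polymerase, had 6.99, 6.99 and 7.16, with a difference of 0.00 from the brightest probe set and 0.13 from the other. On their brightest probe sets, these 3 genes had differences from -0.01 to 0.01. Prim1, the primase subunit that makes the RNA primer, had 8.36 in normal medium, 8.71 in osteogenic medium and 8.80 with DMSO and was higher by 0.36, with 0.34 from its second probe set.

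Genes that act beside the polymerases were higher. Rpa2, a subunit of the protein that coats single-stranded DNA, had 7.05 in normal medium, 7.69 in osteogenic medium and 7.88 with DMSO, 1.55-fold higher in osteogenic medium (0.63), and its second probe set gave 0.49. Lig1, the ligase that joins Okazaki fragments, had 7.77, 8.22 and 8.40 in the same order of media, higher by 0.45. Fen1, the nuclease that trims their ends, had 8.20, 8.54 and 8.88, higher by 0.34 (0.47 from the other probe set). Pcna, the sliding clamp that tethers the polymerases, had 10.94 in normal medium, 11.23 in osteogenic medium and 11.48 with DMSO, a difference of 0.28. Of the subunits of the clamp loader, Rfc3 (6.88, 7.33 and 7.45) was higher by 0.45, Rfc5 (7.66, 7.90 and 8.05) by 0.24 and Rfc4 (7.31, 7.46 and 7.58) by 0.15. The second probe set of Rfc3 was about as bright in normal medium (6.89) and gave 0.34, and that of Rfc4 gave 0.23.

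In nucleotide supply, Rrm2, the small subunit of ribonucleotide reductase whose level follows the cell cycle, had 8.68 in normal medium, 9.25 in osteogenic medium and 9.52 with DMSO. It was 1.48-fold higher in osteogenic medium, and its 3 probe sets gave 0.57, 0.53 and 0.49. Rrm1, the large subunit, had 9.46 in normal medium, 9.64 in osteogenic medium and 9.45 with DMSO, higher by only 0.18. Tk1, thymidine kinase, had 8.10 in normal medium, 8.43 in osteogenic medium and 8.38 with DMSO, higher by 0.33. The best probe set of Tyms read 2.85, 3.18 and 3.18, below the floor, so no difference is given.

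The genes of chromatin and checkpoint were also higher. Chaf1b, a subunit of CAF-1, which places histones on new DNA, had 6.43 in normal medium, 6.95 in osteogenic medium and 7.24 with DMSO, 1.43-fold higher in osteogenic medium. Uhrf1, which keeps DNA methylation in place after copying, had 8.12 in normal medium, 8.59 in osteogenic medium and 8.85 with DMSO, higher by 0.47, with 0.28 from its second probe set. The probe sets of Chek1, the kinase of the replication checkpoint, were less uniform. Its brightest set had 6.05 in normal medium, 6.32 in osteogenic medium and 6.53 with DMSO, a difference of 0.27, and another gave 0.57, while a dim set gave 0.00.

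**Figure D3:**
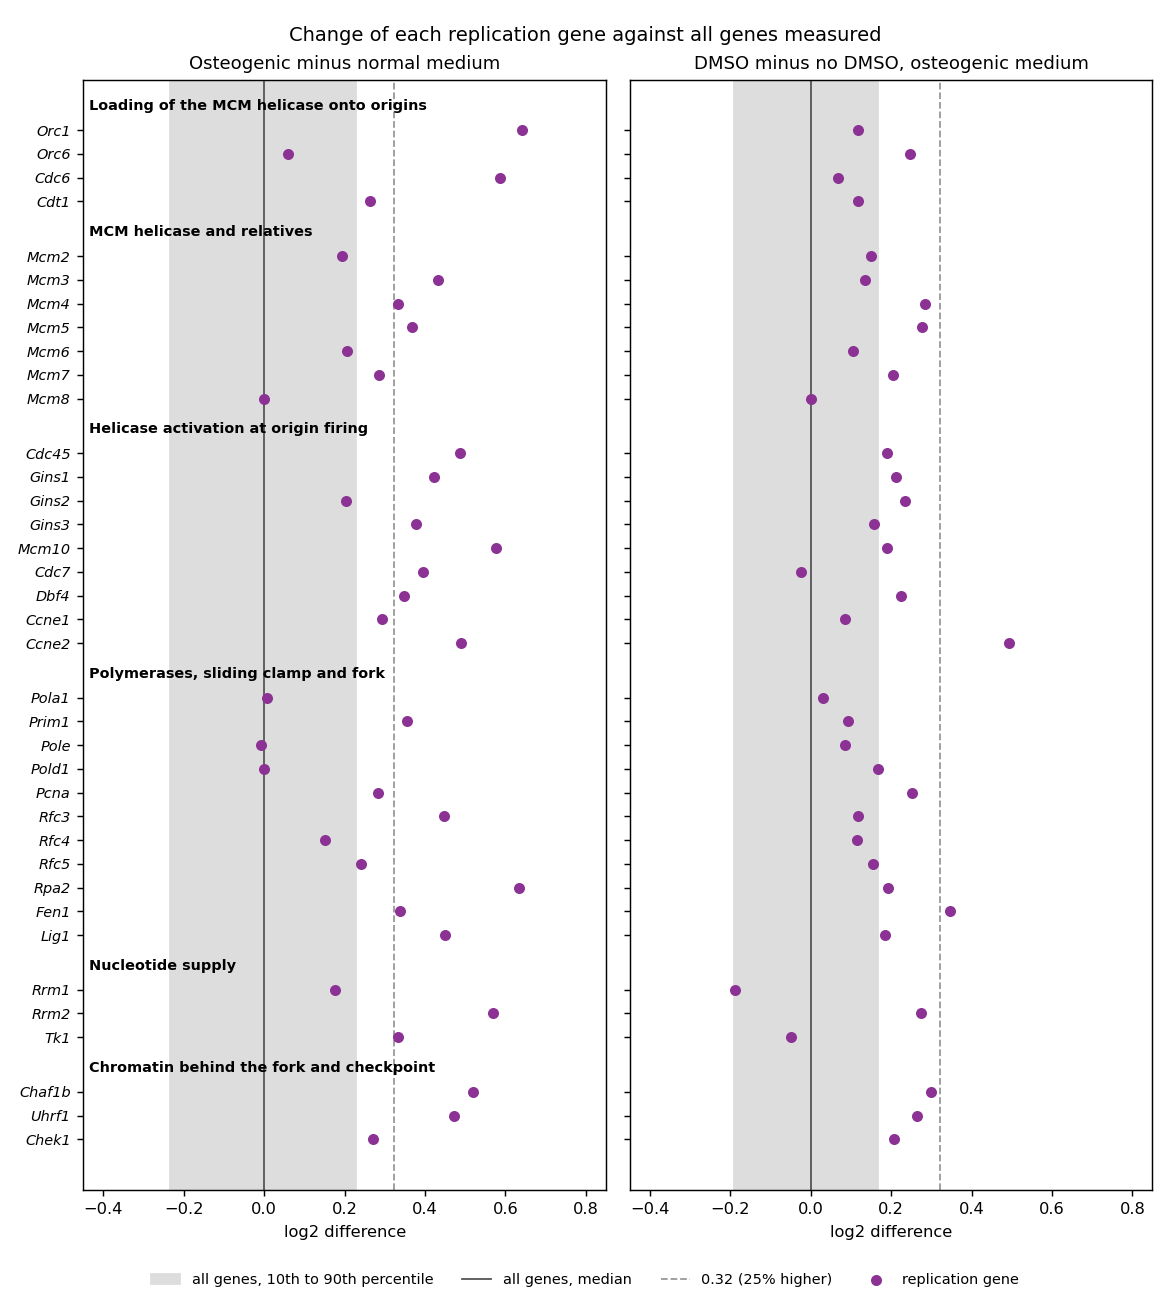
Log2 difference (x axis) of each measured replication gene (purple points) in osteogenic minus normal medium (left) and with DMSO minus without it in osteogenic medium (right). The grey band spans the 10th to the 90th percentile of all genes measured, -0.23 to 0.23 on the left and -0.19 to 0.17 on the right; 21 genes on the left and 2 on the right lie beyond the dashed line at 0.32.

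Within osteogenic medium, the replication signals were slightly higher with DMSO than without it. Of the 37 members, 33 were higher with DMSO, 1 was equal and 3 were lower, beside 40.5% of all genes higher and 30.3% lower. The median difference was 0.17 on the log2 scale (1.12-fold) and that of all genes was 0.00. Higher by at least 0.32 were 2 members, Ccne2 and Fen1, beside 2.24% of all genes, and 0 members were lower by that much beside 5.42% of all genes. No member reached 2-fold, which 0.0525% of all genes did upwards and 0.552% downwards. The array of osteogenic medium without DMSO enters this comparison and the one before with opposite sign, so the sizes stand side by side and are not independent. The spikes were at a median of -0.03 here (range -0.10 to 0.02). The count is small and its size depends on the probe sets: without the probe sets marked _x_at or _s_at it was 5 of 37, beside 2.26% of all genes, and with the second brightest probe set 5 of 23, beside 2.13%. Shifted to equal spikes it was 4 of 37, beside 3.34% of all genes.

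The difference was largest for Ccne2, at 0.49 (1.41-fold), about as large as its osteogenic difference of 0.49. Fen1 was higher by 0.35 and its other probe set by 0.37. Next came Chaf1b (0.30), Mcm4 (0.28), Mcm5 (0.28) and Rrm2 (0.27), the last with 0.35 and 0.40 from its other probe sets. The second probe sets of Mcm4 (-0.07) and of Cdt1 (-0.06, against 0.12 from its brightest set) had the opposite sign. Uhrf1 was higher by 0.27, Pcna by 0.25 and Orc6 by 0.25. For Orc6 and Pold1, the difference with DMSO (0.25 and 0.17) was larger than that of osteogenic medium (0.06 and 0.00). The other probe set of Pold1 gave 0.15 with DMSO and 0.13 in osteogenic medium. On their brightest probe sets, Pole, Pola1, Gins2, Fen1 and Ccne2 also had the larger difference with DMSO, by smaller margins. Orc1 (0.12), Cdc6 (0.07) and Prim1 (0.09) differed little with DMSO. The remaining clamp loader genes were at 0.16 for Rfc5, 0.12 for Rfc3 and 0.12 for Rfc4. The second probe set of Rfc3 was at 0.04 and that of Rfc4 at 0.36.

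Rrm1 was the member lowest with DMSO. It was 0.878 times its level without DMSO (a difference of -0.19), its second bright probe set gave -0.19, and its signal with DMSO was back at that of normal medium (9.45 and 9.46). Its partner Rrm2 went the other way on all 3 of its probe sets. Tk1 and Cdc7 were lower by small amounts (-0.05 and -0.02). Of the 3 measured nucleotide supply genes, only Rrm2 was higher with DMSO, which is near the 40.5% of all genes that were higher. All 11 polymerase, clamp and fork genes were higher, with a median of 0.16. The 9 helicase activation genes had a median of 0.19 and the 4 loading genes 0.12. Chek1 was higher by 0.21 on its brightest probe set and at -0.26 on another, so its direction with DMSO differed between probe sets.

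Osteogenic medium with DMSO against normal medium, which is the sum of both differences and shares its arrays with them, gave a median of 0.53 (1.45-fold) over the 37 members. There were 35 members higher, 1 equal and 1 lower, beside 40.7% of all genes higher and 35.8% lower. Past 0.32 there were 28 members higher and 0 lower, beside 8.09% and 9.92% of all genes, and 0 members reached 2-fold in either direction, beside 0.604% of all genes higher and 1.34% lower. With the second brightest probe sets 15 of 23 passed 0.32, beside 7.42% of all genes. Ccne2 came nearest to 2-fold (1.97-fold), followed by Rrm2 (1.80-fold), Rpa2 (1.78-fold) and Chaf1b (1.76-fold). On either side of 0.32 lay Mcm2 (higher by 0.34) and Mcm6 (higher by 0.31). The signals of 31 members stood in the order normal, osteogenic and osteogenic with DMSO, a description of levels in which the middle array is shared, beside 17% of all genes that were measured throughout. The 6 exceptions were Mcm8, Cdc7, Pole, Pold1, Rrm1 and Tk1.

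Members with and without an E2F word in a window had overlapping values. The 14 measured members with a word had a median difference of 0.37 in osteogenic medium (range 0.00 to 0.64) and of 0.13 with DMSO (range 0.00 to 0.28). For the 18 measured members with windows but no word, the medians were 0.34 (range 0.06 to 0.63) and 0.19 (range -0.19 to 0.35). From the upper part of the range in osteogenic medium, Uhrf1, Lig1 and Cdc6 are examples with a word, and Rpa2, Rrm2 and Chaf1b are examples without. Mcm8 (0.00), Pola1 (0.01) and Pold1 (0.00) also held a word. The 5 measured members with no window had medians of 0.33 in osteogenic medium and 0.23 with DMSO.

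Repeat probe sets are the only repeat measurement, made on the same RNA, and they leave out the spread between cultures. The 38 members with a probe set had 83 in all, of which 68 were above the floor on all arrays. In osteogenic against normal medium 61 of the 68 were higher, 6 were equal and 1 was lower, beside 36.5% of all genes higher and 38.7% lower. With DMSO 58 were higher, 3 equal and 7 lower, beside 40.5% and 30.3%. These shares are of genes read by their brightest set. In 23 members the brightest set could be compared with the next: in osteogenic medium the second set was higher in 21 of them (median 0.29), and with DMSO it was higher in 17 and lower in 4 (median 0.16). Over all 5183 genes with such a pair, the second set was higher in 1621 and lower in 2070 in osteogenic medium. With DMSO it was higher in 1978 of them and lower in 1488. Over the same genes, the SD of the difference between the sets was 0.19 in osteogenic medium and 0.15 with DMSO. Over the 23 members it was 0.21 and 0.16. Of the brightest sets, 5 were of the type _s_at, whose probes match several transcripts. Another 5 were of the type _x_at, whose probes can match other genes as well (Mcm5, Ccne1, Pold1, Fen1 and Rrm2).

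**Figure D4:**
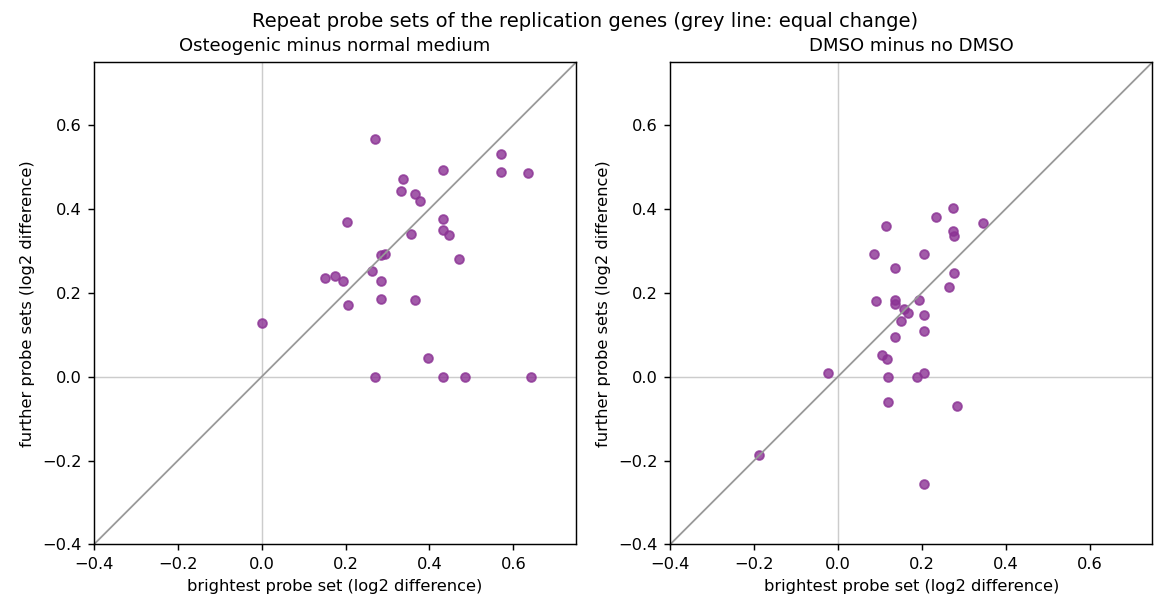
Log2 difference of each further probe set above the floor (y axis) against that of the brightest probe set of the same replication gene (x axis), for osteogenic minus normal medium (left) and DMSO minus no DMSO (right). Most points lie above 0 on both axes; on the left, dim sets of Orc1, Cdc45, Mcm3 and Chek1 lie at 0, and on the right Rrm1 lies at -0.19 and -0.19.

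Replication genes outside the list showed the same direction at smaller size. Their median was 0.20 in osteogenic medium, and 0.10 with the spikes set equal. Of 49 measured, 41 were higher in osteogenic medium, beside 36.5% of all genes. Past 0.32 were 14 higher and 1 lower, beside 6.02% and 5.94% of all genes. With DMSO 45 were higher, beside 40.5% of all genes, and 6 were past 0.32, beside 2.24%. Their median with DMSO was 0.12 (0.077 with the second brightest probe set). Mms22l, which with Tonsl guards stalled forks, had 6.78 in normal medium, 7.59 in osteogenic medium and 7.90 with DMSO, a difference of 0.81 in osteogenic medium. Dna2, a nuclease and helicase of fork ends, was higher by 0.78, the nuclease Exo1 by 0.67 and Clspn, the partner of Chek1, by 0.55. Gmnn, which encodes geminin, the inhibitor of Cdt1, was higher by 0.43 in osteogenic medium and by 0.18 with DMSO. For Ccna2, the cyclin A of S phase, the values were 0.29 and 0.28. With DMSO the largest were Asf1b, a histone chaperone (0.43), Chtf18 (0.42), a clamp loader subunit, Rnaseh2a (0.41) and Clspn (0.39). Of the origin subunits outside the list, Orc4 was higher by 0.16 and Orc2 by 0.04 in osteogenic medium, Orc3 differed by less than 0.01 and Orc5 was lower (a difference of -0.39).

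Mitosis genes were higher as well, with a median of 0.41 and all 28 above normal medium, beside 36.5% of all genes. Past 0.32 were 21 of them, beside 6.02% of all genes. With DMSO 27 were higher, beside 40.5% of all genes, and the median was 0.20. Of these genes 5 were past 0.32 with DMSO, beside 2.24% of all genes. The proliferation marker Mki67 had 8.89 in normal medium, 9.08 in osteogenic medium and 9.21 with DMSO. The difference between the medians of replication and mitosis genes was not tested.

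The regulators upstream were mixed. Of 13 E2F and pocket protein genes, 9 were higher in osteogenic medium, 2 equal and 2 lower, beside 36.5% of all genes higher and 38.7% lower. Of the 2 lower, E2f2 lay at the floor, with 3.58 in normal medium and 3.47 in osteogenic medium. The median of the list was 0.16. Past 0.32 were E2f8 (0.53) and E2f7 (0.37), repressors that are known as E2F targets, beside 6.02% of all genes. E2f1, an activator, had 6.09 in normal medium, 6.36 in osteogenic medium and 6.58 with DMSO, differences of 0.26 and 0.23. The pocket genes Rb1, Rbl1 and Rbl2 were at 0.16, 0.17 and 0.00 in osteogenic medium. With DMSO the list had a median of 0.00, with E2f7 at 0.42. Among 7 G1 cyclin, kinase and Myc genes the median was 0.00 in both comparisons, and Ccnd1, cyclin D1, was the exception. Its signals were 9.93 in normal medium, 10.60 in osteogenic medium and 10.16 with DMSO, higher by 0.67 in osteogenic medium and lower with DMSO (a difference of -0.44). Cyclin D1 and cyclin E2 thus differed in direction with DMSO.

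The list of inhibitors and brakes, which also holds the p53 antagonist Mdm2, was mixed in osteogenic medium. With DMSO most of its genes were lower, several by very little. Of 9 measured, 5 were higher in osteogenic medium, 1 equal and 3 lower, beside 36.5% of all genes higher and 38.7% lower. Their median was 0.22. Cdkn1a, the kinase inhibitor p21, had 9.82 in normal medium, 10.65 in osteogenic medium and 10.35 with DMSO. Past 0.32 in osteogenic medium were 4 higher, beside 6.02% of all genes, and 1 lower, beside 5.94%. The 4 were Mdm2, the p53 antagonist (0.84), Cdkn1a (0.82), Btg2 (0.78) and Ccng1 (0.45), and the 1 lower was Gadd45a (-0.71). With DMSO the list had a median of -0.08, and 0 were higher, 1 equal and 8 lower, beside 40.5% of all genes higher and 30.3% lower. Among the 8, Cdkn2c (-0.003), Cdkn2d (-0.04), Btg2 (-0.07) and Cdkn1b (-0.08) differed little. Cdkn1a was at -0.30 and Mdm2, which stayed 0.38 above normal medium, at -0.45. Mdm2 was the 1 gene of this list past 0.32 with DMSO, beside 5.42% of all genes lower by that much. Cdkn1b, the inhibitor p27, was at -0.22 in osteogenic medium and -0.08 with DMSO. Of the genes that encode INK4 inhibitors, Cdkn2a and Cdkn2b were below the floor on all arrays. Cdkn2c had 9.61 in normal medium, 9.53 in osteogenic medium and 9.52 with DMSO, and Cdkn2d had 7.23, 7.46 and 7.41. The 9 housekeeping genes measured had a median of 0.00 in both comparisons, ranging from -0.32 (B2m) to 0.28 (Hprt) in osteogenic medium and from -0.13 (B2m) to 0.34 (Tfrc) with DMSO.

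**Figure D5:**
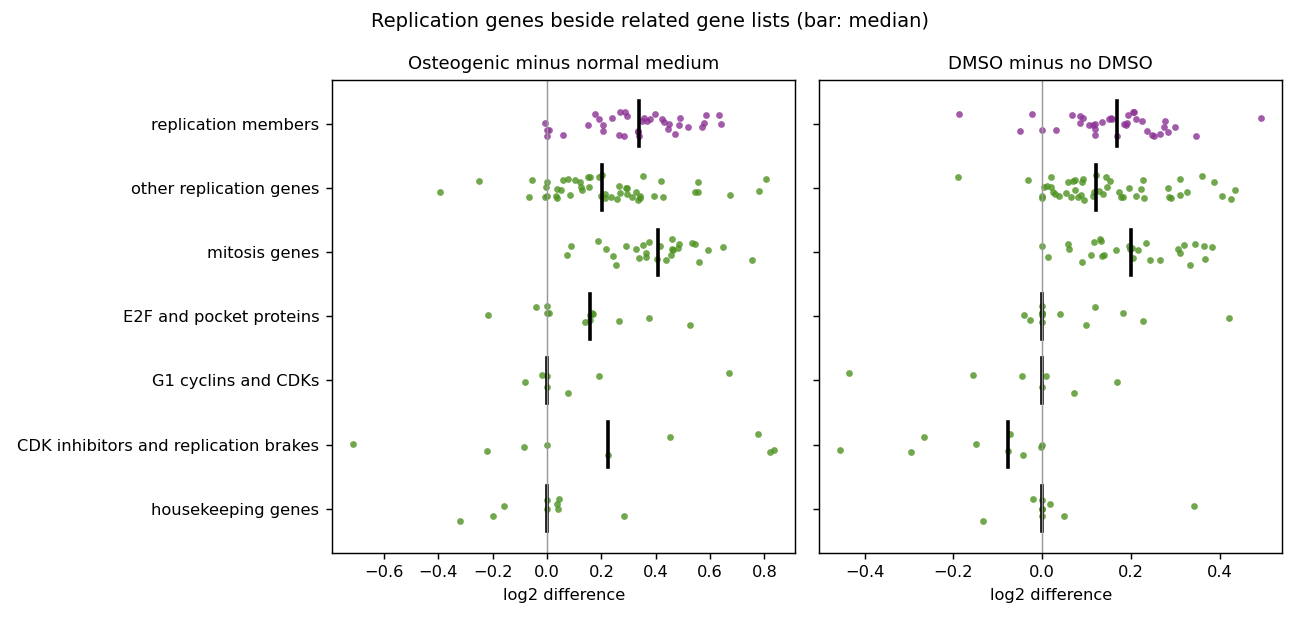
Log2 differences (x axis) of the measured replication genes (purple) and of related gene lists (green, 1 point per gene, spread vertically at random), with the median of each as a black bar, for osteogenic minus normal medium (left) and DMSO minus no DMSO (right). The medians on the left are 0.34 for the replication genes, 0.41 for mitosis and 0.22 for the brakes, and on the right 0.17, 0.20 and -0.08.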

How the data were processed

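RNA of 3 cultures was labelled with a 3′ IVT kit and hybridised to Affymetrix GeneChip mouse arrays, 1 for each medium, per the labels. The deposited log2 values of 45101 probe sets were used as given. How the authors summarised and normalized them is not given in the sources used here. A base of 2 was read from the range of 0.652 to 13.4. Array medians were 3.54, 3.58 and 3.54. If the arrays were scaled to each other, a change in total RNA would not be seen. Of the 45037 probe sets that are not controls, 37.4% had equal values on all arrays.

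Genes came from the platform annotation of 2016. Of the probe sets, 34945 had 1 symbol, 932 several and 9160 none, and only the first kind was used. Each gene was read by its brightest probe set on average. Values under the 50th percentile (3.54) were raised to it. Differences are between 2 arrays, with no test. Every member with a probe set is named, and from the other lists Cdkn1a, Trp53, Ccnd1, E2f1, Mki67, Gmnn and Ccna2 and up to 4 genes with the largest differences (Trp53 had no probe set of its symbol alone). Some others were named after their values were seen: Tonsl, Orc2 to Orc5, E2f2, the pocket genes, Ccng1, Cdkn1b, Cdkn2a, Cdkn2b, Cdkn2c, Cdkn2d, Col2a1, B2m, Hprt and Tfrc. Members and lists were chosen with earlier results of these data known. Promoter sequences are from RefSeq (GRCm38.p6).

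Alternatives were quantile normalization, cyclic loess, no floor, a floor at the 60th percentile, other choices of probe set, and equal values left out. Analyses used Python 3.11.15, numpy 2.4.6, pandas 2.3.3, matplotlib 3.10.9, R 4.3.3 and limma 3.58.1 (for loess). Only the counting of differences in osteogenic against normal medium was tried on simulated data, with planted differences larger than the members' median.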

Additional observations from a re-analysis of the deposited data

How the results depend on the processing

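The medians of the members and of the other replication genes kept their direction under all 9 alternatives. The members' median ranged from 0.23 to 0.37 for osteogenic against normal medium, from 0.15 to 0.21 for DMSO within osteogenic medium and from 0.47 to 0.56 for both together. The other replication genes ranged from 0.10 to 0.22 and from 0.08 to 0.16 for the first and second of these, and moved by more than 1.5 times with the spikes set equal (0.10 in place of 0.20 for osteogenic medium) and with the second brightest probe set (0.077 in place of 0.120 for DMSO). Counts past 0.32 on the log2 scale moved by more than 1.5 times under 3 settings. With the second brightest probe set, which 23 members have, they were 11, 5 and 15 in the order above, and 17 members stood in the order of media. These counts run over fewer genes. With the spikes set equal they were 12 for osteogenic medium and 4 for DMSO, and without _x_at and _s_at probe sets 5 for DMSO, in place of 21 and 2; both of these settings were added after seeing the data. No paired analysis was possible because each medium has 1 array. Mcm8 was read by 1 probe set, with equal values on all arrays, and the signal of Tyms was below the floor.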
